A study of Mus musculus with 19 samples.

Results

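Heterotrimeric G proteins carry the signal of dopamine, adenosine and acetylcholine receptors into striatal neurons. Each is built from an alpha subunit, which binds guanine nucleotide, and a paired beta and gamma subunit. This account covers 10 subunit genes chosen by symbol, of 39017 genes in the deposited tables: 7 alpha genes (Gnal, Gnas, Gnai1, Gnai2, Gnai3, Gnao1 and Gnaq), the beta gene Gnb1 and the gamma genes Gng3 and Gng7. All 10 were found and all 10 passed the filter on low counts, which left 13926 genes.

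The data are ribosome-bound mRNA from the striatum of female mice on a C56BL/6J background, collected by translating ribosome affinity purification (TRAP). The groups were D1 spiny projection neurons of Drd1::EGFP-L10a mice at 2 years (old D1) and at 42 days (young D1), and D2 spiny projection neurons of Drd2::EGFP-L10a mice at 2 years (old D2) and at 42 days (young D2), with 4 libraries in each. Every group thus carried a tagged ribosomal protein L10a, driven by the receptor gene that names the neuron type. Each library gives the average of all cells that carried the tag, so fewer cells of a type and less RNA per cell cannot be told apart. Levels are given as TPM, the share of a transcript among all transcripts after division by its length.

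In these neurons the stimulatory alpha subunit made by Gnal (G alpha olf) couples the dopamine D1 receptor and the adenosine A2a receptor to adenylyl cyclase, whereas most tissues use the Gs alpha subunit made by Gnas. The Gi and Go alpha subunits, from Gnai1, Gnai2, Gnai3 and Gnao1, are the partners of D2 and muscarinic M4 receptors and lower cyclase activity or act through their beta and gamma subunits. Gnaq couples receptors to phospholipase C. In mouse striatum the gamma subunit of Gng7 is needed for a normal amount of the G alpha olf protein, and Gng3 encodes a gamma subunit found mainly in neurons.

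The libraries held between 27484038 and 70903004 estimated fragments. Drd1 averaged 418 TPM in old D1 and 284 TPM in young D1 libraries, against 67.6 TPM in old D2 and 8.31 TPM in young D2 libraries. Drd2 averaged 23.9 and 19.9 TPM in old and young D1 libraries, against 3529 and 3116 TPM in old and young D2 libraries. The old D1 libraries stood apart: 10367 to 13700 genes had a TPM above 0 in them, against 12778 to 14992 in the other 12 libraries, so that these ranges overlapped. Their mean correlation with libraries of the same group was 0.736 to 0.777, against 0.806 or more in every other group. Gm42418 took 4.45 to 5.41% of the counts in old D1 libraries and 9.76 to 18.2% in the other 12 libraries, without overlap.

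Markers of other cell types differed between old and young D1 libraries in part. The summed TPM of 7 astrocyte markers was 238 to 390 in old D1 and 53.1 to 121 in young D1 libraries. Aldoc made up most of it, at 278 TPM in old D1 and 41.2 TPM in young D1 libraries, and was the only one of the 7 called with age in D1 libraries by edgeR. Slc1a2 averaged 25.5 TPM in old D1 and 41.7 TPM in young D1 libraries, and the other 5 markers averaged at most 6.86 TPM in both groups. The sum of 6 oligodendrocyte markers had a median of 49.7 TPM in old D1 and 131 TPM in young D1 libraries, with none of the 6 called. Of the interneuron markers, Nos1 was called higher, at 12.8 TPM in old D1 and 1.10 TPM in young D1 libraries. Markers of spiny projection neurons differed too. The summed TPM of 6 markers shared by both types was 3585 to 4072 in old D1 and 4859 to 6363 in young D1 libraries. Only Ppp1r1b of the 6 was called, lower in old D1 libraries. The sum of 7 D1 markers was 4828 to 7693 in old D1 and 2634 to 3461 in young D1 libraries, with only Tac1 called, higher. The part of these markers and of Gm42418 in the subunit values was not tested. Libraries of different ages carried different index sequences within each neuron type, so index and age cannot be told apart.

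The Gnas transcripts are shown first because the share of Gnas-206 in all Gnas isoform TPM did not overlap between old D1 and young D1 libraries. Gnas lies on chromosome 2 of GRCm38 (plus strand), and its main coding isoforms in these data, Gnas-208 and Gnas-206, differ in their coding sequence by 1 exon of 45 bases at chr2:174336747-174336791, which gives the long and the short form of Gs alpha. The exon is in capitals between the last 25 bases of the exon before it and the first 25 bases of the exon after it. In the short form those flanks join directly.
Gnas-208: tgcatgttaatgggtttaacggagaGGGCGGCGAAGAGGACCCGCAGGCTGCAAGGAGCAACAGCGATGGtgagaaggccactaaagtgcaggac
Gnas-206: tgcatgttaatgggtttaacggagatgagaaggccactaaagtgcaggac
The exon is 68.9% G or C and adds 15 codons.

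Promoters of the gamma genes are shown because both gamma transcripts were lower in old D1 libraries. The windows are RefSeq sequences of GRCm38.p6 that run from 250 bases before to 50 bases after a gene start in RefSeq, which for Gng3 lies upstream of the start in GENCODE M21. They lie at chr10:81014876-81015175 for Gng7 and at chr19:8839197-8839496 for Gng3, both on the minus strand. Capitals mark the letters GGGCGG, the GC box bound by Sp family factors, on either strand. The letters TGACG, a part of the cyclic AMP response element, were searched for in the same way.
Gng7: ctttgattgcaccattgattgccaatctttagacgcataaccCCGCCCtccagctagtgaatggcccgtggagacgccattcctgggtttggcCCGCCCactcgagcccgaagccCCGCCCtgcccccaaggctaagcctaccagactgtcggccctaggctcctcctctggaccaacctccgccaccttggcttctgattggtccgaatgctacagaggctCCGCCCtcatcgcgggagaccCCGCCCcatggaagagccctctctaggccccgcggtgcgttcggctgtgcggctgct
Gng3: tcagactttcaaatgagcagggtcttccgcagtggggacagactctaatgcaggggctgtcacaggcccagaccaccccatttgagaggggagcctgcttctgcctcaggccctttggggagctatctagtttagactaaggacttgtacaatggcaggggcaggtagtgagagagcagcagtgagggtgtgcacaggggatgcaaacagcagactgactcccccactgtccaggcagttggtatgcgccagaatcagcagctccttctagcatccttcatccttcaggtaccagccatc
The Gng7 window shown held 5 GC boxes and the Gng3 window held none. RefSeq gives Gng7 another window at chr10:81001316-81001615, not printed, with 0 GC boxes and 1 TGACG. A GC box was present in 35.7% of the 32851 promoter windows and TGACG in 20.8%, and neither gamma promoter shown held TGACG. The full response element TGACGTCA was in 1.79% of all windows and in none of the 12 windows examined for 8 of the 10 genes. Gnal and Gnai2 were not among these 8, so their promoters were not examined individually and no result is given for them.

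**Figure D1:**
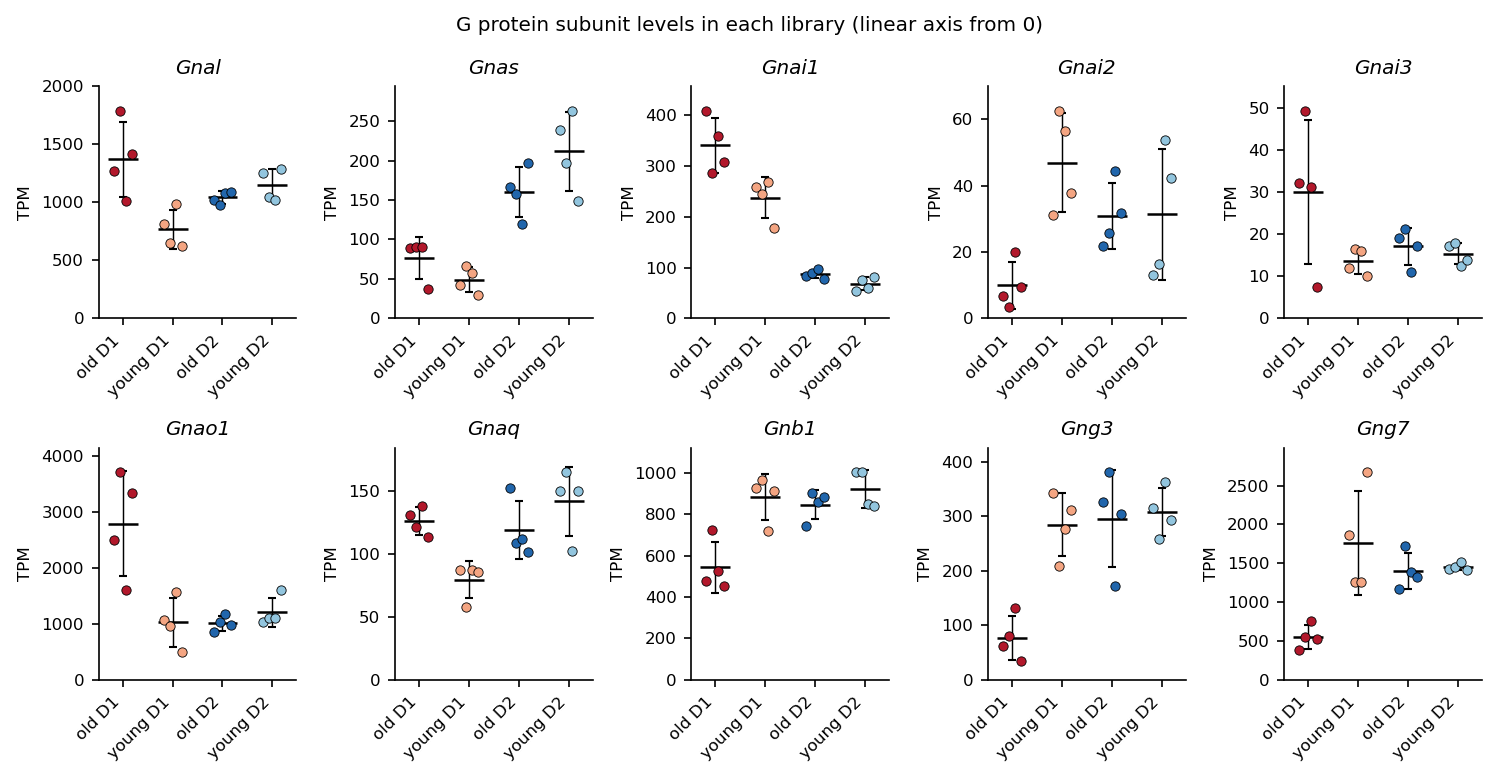
TPM of each of the 10 subunit genes (vertical axes, linear and starting at 0) in every library, by group. Points are libraries, the wide bar is the group mean and the whisker its SD (n = 4). Gng3 is at 34.1 to 131 TPM in old D1 libraries and at 172 TPM or more in all others, and Gnai1 separates D1 from D2 libraries at both ages.

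By the GENCODE M21 annotation of GRCm38, Gng7 spans chr10:80948624-81014945 and Gng3 chr19:8836933-8839194 on the minus strand, as does Gnai1 at chr5:18265135-18360355. Gnas spans chr2:174284320-174346744 and Gnao1 chr8:93809966-93969388 on the plus strand.

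The 4 genes with the highest mean TPM were Gng7, Gnao1, Gnal and Gnb1 in every group. In old D2 and young D2 libraries Gng7 was highest of the 10, with a mean of 1400 TPM in old and 1454 TPM in young libraries, and in young D1 libraries it was also highest, at 1764 TPM. In old D1 libraries it was the third, at 555 TPM, behind Gnao1 at 2785 TPM and Gnal at 1369 TPM. Short isoform models of 332 and 231 bases, Gnao1-208 and Gnao1-210, held 50.4% and 15.7% of that Gnao1 TPM on average. Gnai2 and Gnai3 had the lowest means in all 4 groups, at 9.94 and 30.0 TPM in old D1 libraries. Neighbours in these orders often overlapped between libraries: Gnal, for example, ran from old D1 through young D2 and old D2 to young D1 with overlap at each step, while Gnai1 in old D1, young D1 and old D2 libraries did not overlap.

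The age comparison in D1 neurons showed changes in both directions. Of the 10 subunit genes, 5 were called at an adjusted p under 0.05 by edgeR's quasi-likelihood test, with 2 higher (Gnal and Gnaq) and 3 lower (Gnai2, Gng3 and Gng7) in old D1 libraries. Over all 13926 tested genes 10.8% were called in this comparison, and 26.9% had an unadjusted p under 0.05. The median log2 fold change was 0.41 over the 10 genes and -0.06 over all tested genes.

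Gnal, the alpha subunit of the D1 receptor's G protein, had 1271, 1786, 1008 and 1412 TPM in old D1 libraries, against 813, 645, 983 and 620.1 TPM in young D1 libraries. All 4 old D1 libraries were above all 4 young D1 libraries. The fitted log2 fold change was 0.78 ± 0.17 (SE), or 1.71-fold, with an adjusted p of 0.00608 by edgeR. In a fit to the 8 D1 libraries alone the change was 0.75 with an adjusted p of 0.0881.

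Gng7, the gamma subunit tied to G alpha olf, moved the other way. It had 388, 551, 759 and 523 TPM in old D1 libraries, against 1865, 1265, 1259 and 2669 TPM in young D1 libraries, and the ranges did not overlap. Its log2 fold change was -1.26 ± 0.20, 2.39-fold lower in old D1 libraries, with an adjusted p of 5.9e-04 by edgeR.

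Gng3, the neuronal gamma subunit, had 61.3, 80.8, 131 and 34.1 TPM in old D1 libraries, against 343, 208, 276 and 312 TPM in young D1 libraries. The highest old D1 library was below the lowest young D1 library. The log2 fold change was -2.01 ± 0.31, 4.02-fold lower, with an adjusted p of 5.8e-04 by edgeR. Gng3 and Gng7 were called under all 23 alternative settings in this comparison.

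Gnai2, a Gi alpha subunit found in many cell types, had 6.70, 3.54, 20.1 and 9.45 TPM in old D1 libraries, against 31.1, 62.5, 56.4 and 37.8 TPM in young D1 libraries. The groups did not overlap, and the log2 fold change was -2.33 ± 0.56, with an adjusted p of 0.0124 by edgeR. The adjusted p was 0.0787 in the fit to D1 libraries alone and 0.149 by limma-voom with library weights. Gnaq had 131, 122, 139 and 114 TPM in old D1 libraries, against 87.0, 57.8, 87.7 and 86.1 TPM in young D1 libraries. Its ranges did not overlap either, but the call was at the edge: the log2 fold change was 0.64 ± 0.19 with an adjusted p of 0.0375 by edgeR. Only 6 of the 23 alternatives called it; leaving out young D1 library 2, the lowest, gave 0.52 with an adjusted p of 0.120 by edgeR. Leaving out any old D1 library, young D1 library 1 or 3, young D2 library 1, 2 or 4, or old D2 library 2 or 3 also ended the call.

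The other 5 subunit genes were not called. Gnai1 was at 287 to 409 TPM in old D1 and 179 to 269 TPM in young D1 libraries, without overlap, and its log2 fold change was 0.45 ± 0.18 with an adjusted p of 0.107 by edgeR. Gnas was at 37.3 to 90.8 TPM in old D1 and 30.1 to 66.3 TPM in young D1 libraries, with a log2 fold change of 0.52 ± 0.28 and an adjusted p of 0.243 by edgeR. Gnai3 and Gnb1, the beta subunit most abundant here, had log2 fold changes of 1.03 ± 0.45 and -0.42 ± 0.18, with adjusted p-values of 0.148 and 0.138 by edgeR. Of 23 alternatives, 1 called Gnai3 and 3 called Gnb1. Without old D1 library 4 Gnai3 had 1.34 with an adjusted p of 0.0225 by edgeR. Without old D1 library 2 Gnb1 had -0.65 with 0.0168 by edgeR, and a limma fit to log2(TPM + 1) gave it -0.71 with 0.0120.

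For Gnao1, the Go alpha gene, the measures differed in size and in the call. By counts its log2 fold change was 0.38 ± 0.17 with an adjusted p of 0.161 by edgeR. In TPM it averaged 2785 ± 936 in old D1 and 1026 ± 438 in young D1 libraries (SD, n = 4 each), and a limma fit to log2(TPM + 1) gave 1.48 with an adjusted p of 0.00382. Without old D1 library 3 the counts gave 0.51 with an adjusted p of 0.0368 by edgeR. The TPM includes isoforms Gnao1-208 and Gnao1-210, models of 332 and 231 bases that are part of the gene. The mean length the authors' RSEM run assigned to Gnao1 was 1222 bases in old D1 and 2391 bases in young D1 libraries.

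**Figure D2:**
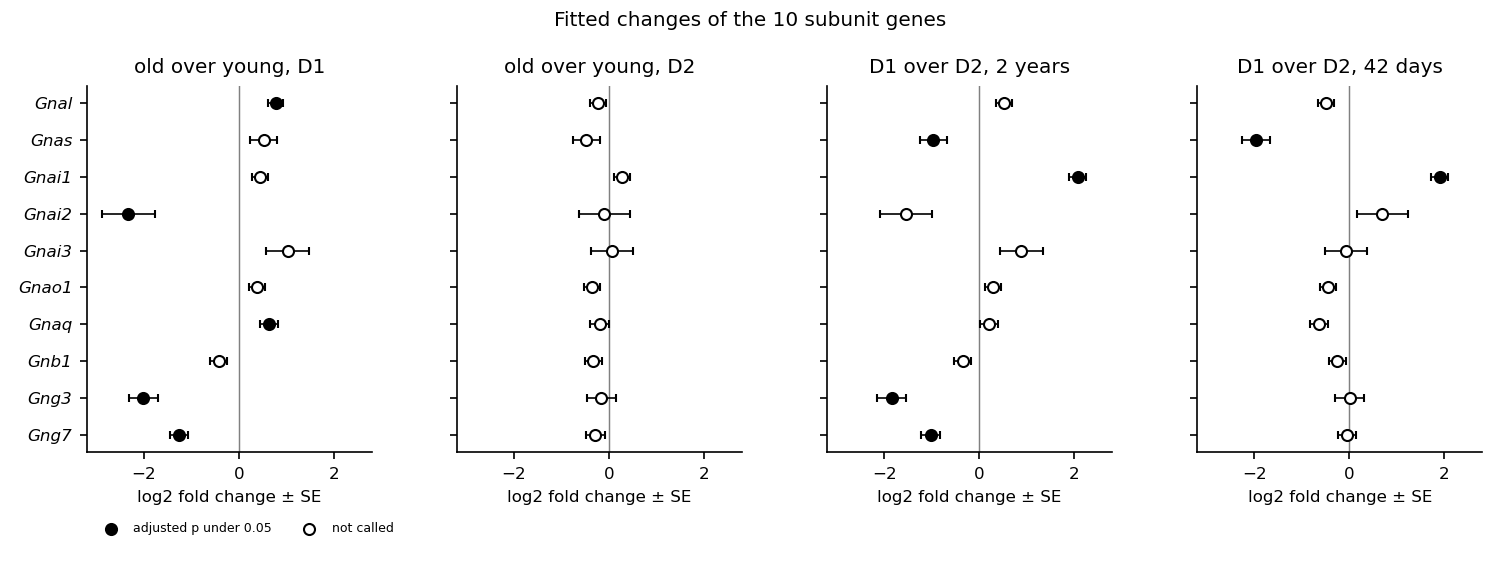
Fitted log2 fold changes with their SE (horizontal axes) of the 10 genes in 4 comparisons from 1 edgeR fit to 16 libraries. Filled points passed an adjusted p of 0.05. The D1 age panel has 5 filled points and the D2 age panel none, and Gnai1 and Gnas are filled in both panels that set D1 against D2.

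The old D1 libraries also had fewer counts of genes rich in G and C. The part of GC content in the subunit changes was not tested beyond removing a trend, given below. Among tested genes, in 5 equal bins, the bin lowest in GC content (31.2 to 44.1%) had a median log2 fold change of 0.43 between old and young D1 libraries, and the highest bin (55.7 to 72.9%) had a median of -0.98. In D2 neurons the corresponding medians were 0.02 and 0.01. Gng7 and Gng3 transcripts hold 54.4% and 53.8% GC, in the next highest bin, whose median was -0.43.

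After a trend on GC content and length was removed, the log2 fold changes in D1 neurons were -0.69 ± 0.18 for Gng7 and -1.51 ± 0.28 for Gng3, with adjusted p-values of 0.0272 and 0.00356 by edgeR. Gnal, at 52.0% GC, had 1.06 ± 0.19 with an adjusted p of 0.00248. GC content and length came from GENCODE M21, where the main Gnal isoform has 3470 bases, against 5223 in the deposited tables. The effect of this mismatch on the Gnal value was not tested. Gnas had 1.10 ± 0.28 with an adjusted p of 0.0217, Gnao1 0.74 ± 0.19 with 0.0237 and Gnb1 -0.59 ± 0.17 with 0.0429, none of which was called before the trend was removed. Gnai2 had -1.55 ± 0.54 with an adjusted p of 0.0909 and Gnaq 0.44 ± 0.19 with 0.163. All 10 genes had the same direction with and without the trend. Removing the trend moved the median change of all genes by 0.15, to 0.09.

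**Figure D3:**
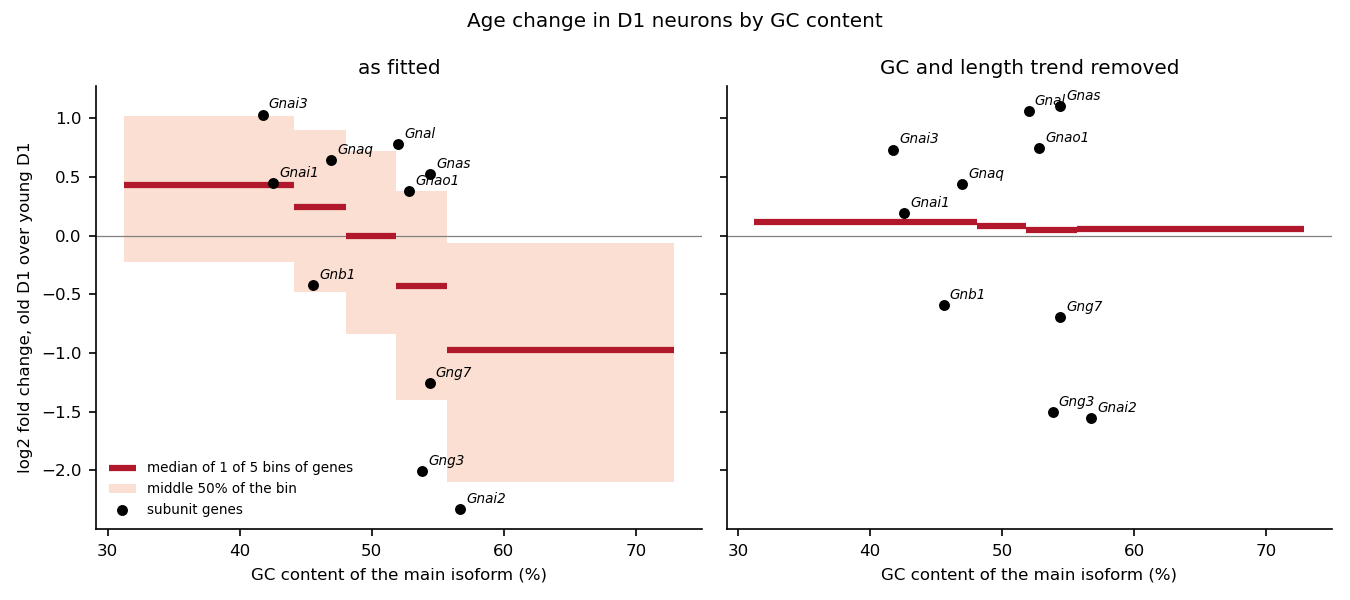
Log2 fold change of old D1 over young D1 libraries (vertical axis) against the GC content of the gene's main isoform (horizontal axis, percent), as fitted and after the GC and length trend was removed. Red bars are medians of 5 equal bins of the tested genes, the shaded boxes (as-fitted panel) their middle 50%, and black points the 10 subunit genes. As fitted, the median runs down to -0.98 in the highest bin. Gnal, Gnas and Gnao1 lie above the median of their bin in both panels, and Gng3 and Gng7 below it. In the as-fitted panel Gng7 lies within the shaded box of its bin and Gng3 below the box.

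In D2 neurons no subunit gene was called with age. By edgeR 1 of the 10, Gnao1, had an unadjusted p under 0.05, and DESeq2, limma and voom also called none. Over all tested genes 0.079% were called, and 5.75% had an unadjusted p under 0.05. Gnal had 1015, 980, 1080.4 and 1090.1 TPM in old D2 libraries, against 1249, 1042, 1015 and 1284 TPM in young D2 libraries. Its log2 fold change was -0.23 ± 0.17, and the groups overlapped. Gng7 had 1172, 1716, 1384 and 1327 TPM in old D2 libraries, against 1431, 1456, 1512 and 1418 TPM in young D2 libraries, a log2 fold change of -0.28 ± 0.19. For Gng3 it was -0.16 ± 0.30. The 95% interval of the age change in D2 neurons was -0.75 to 0.43 for Gng3.

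The difference between the age changes of the neuron types was called for 2 of the 10 genes, against 1.77% of all tested genes. For Gnal the change in D1 minus that in D2 was 1.0 ± 0.24 on the log2 scale with an adjusted p of 0.0359 by edgeR. For Gng3 it was -1.85 ± 0.43 with an adjusted p of 0.0324, and for Gng7 -0.97 ± 0.27 with an adjusted p of 0.0691. Leaving out 1 library at a time left between 0 and 5 of the 10 genes called. With old D1 library 3 left out there were 5, and there were 0 with any of young D1 libraries 1 and 4, young D2 libraries 1, 2 and 4 or old D2 libraries 1, 2 and 4 left out. The call of Gnal ended without any D2 library of either age, young D1 library 1, 2 or 4, or old D1 library 2. Other settings also ended these calls: the adjusted p of Gnal was 0.0682 by limma on log2(TPM + 1), and that of Gng3 was 0.0519 by limma, 0.0617 by voom and 0.0817 with the GC trend removed. In that limma fit Gnao1 and Gng7 were the 2 genes called, with adjusted p-values of 0.0462 and 0.0260. In all, 9 of 22 alternatives called Gnal and 10 of 22 called Gng3. The call of Gng3 ended without young D1 library 1 or 4, young D2 library 1, 2 or 4, old D1 library 1 or old D2 library 1, 2 or 4.

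Between the neuron types, Gnai1 was higher and Gnas lower in D1 libraries at both ages. Gnai1, a Gi alpha subunit, was at 409, 287, 360 and 307 TPM in old D1 libraries, against 84.0, 88.9, 96.6 and 78.2 TPM in old D2 libraries. In young mice it was at 259, 245, 269 and 179 TPM in D1 libraries, against 54.4, 74.8, 59.8 and 82.3 TPM in D2 libraries. Every D1 library was above every D2 library of either age. The log2 fold changes were 2.08 ± 0.18 at 2 years and 1.91 ± 0.18 at 42 days, or 4.24-fold and 3.77-fold, with adjusted p-values of 1.0e-06 and 3.9e-06 by edgeR, and the gene was called under all 23 alternatives at each age.

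Gnas, the Gs alpha gene, was lower in D1 neurons. At 42 days it was at 42.1, 66.3, 57.2 and 30.1 TPM in D1 libraries, against 238, 197, 263 and 149 TPM in D2 libraries. No D1 library reached the lowest D2 library, and the log2 fold change was -1.97 ± 0.29, 3.91-fold lower, with an adjusted p of 0.00136 by edgeR. At 2 years it was at 89.6, 90.8, 90.0 and 37.3 TPM in D1 libraries, against 167, 157, 119 and 197 TPM in D2 libraries. The groups were again apart, with a log2 fold change of -0.97 ± 0.28 and an adjusted p of 0.0364 by edgeR. Only 14 of 23 alternatives called it at 2 years; leaving out old D1 library 4, the lowest, gave -0.79 with an adjusted p of 0.0718 by edgeR, and removing the GC trend gave -0.56 with 0.235. Leaving out old D1 library 2, young D2 library 1 or old D2 library 1, 2 or 4 also ended the call.

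At 42 days Gnai1 and Gnas were the 2 subunit genes called, against 0.409% of all tested genes. At 2 years 4 of the 10 genes were called, against 9.60% of all tested genes: Gnai1 was higher, and Gnas, Gng3 and Gng7 were lower in D1 libraries. Gng3 was at 34.1 to 131 TPM in old D1 and 172 to 381 TPM in old D2 libraries, with a log2 fold change of -1.84 ± 0.31 and an adjusted p of 0.00102 by edgeR. Gng7 was at 388 to 759 TPM in old D1 and 1172 to 1716 TPM in old D2 libraries, with a log2 fold change of -1.02 ± 0.20 and an adjusted p of 0.00304. With the GC trend removed Gng7 was at -0.50 with an adjusted p of 0.105. These comparisons use the same old D1 libraries as the age comparison in D1 neurons, and at 42 days the log2 fold changes were 0.01 ± 0.30 for Gng3 and -0.05 ± 0.19 for Gng7. Gnal was not called at either age. Its log2 fold change was -0.48 ± 0.17 at 42 days, without overlap, and 0.52 ± 0.17 at 2 years, with overlap. The adjusted p-values were 0.541 and 0.0538 by edgeR. At 2 years 3 of 23 alternatives called Gnal, with adjusted p-values of 0.0461 by DESeq2 and, by edgeR, 0.0135 with the GC trend removed and 0.00808 without old D1 library 3. At 42 days voom alone called it, at 0.0324.

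Old D2 libraries held more D1 neuron markers than young D2 libraries did, which touches the comparison at 2 years. The summed TPM of 7 D1 markers was 439 to 689 in old D2 and 144 to 170 in young D2 libraries, and 4828 to 7693 in old D1 libraries. The part of this in the subunit values was not tested.

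The balance of the stimulatory alpha genes was read as the log2 ratio of Gnal to Gnas TPM in each library. In old D1 libraries the ratio itself was 14.2, 19.7, 11.2 and 37.9, and in old D2 libraries it was 6.08, 6.23, 9.04 and 5.53. In young D1 libraries it was 19.3, 9.73, 17.2 and 20.6, and in young D2 libraries 5.24, 5.28, 3.86 and 8.63. Gnal thus exceeded Gnas in every library, and every D1 library had a higher ratio than every D2 library. The log2 ratio averaged 4.21 ± 0.76 in old D1 and 2.72 ± 0.31 in old D2 libraries, and 4.01 ± 0.49 in young D1 and 2.46 ± 0.48 in young D2 libraries (SD, n = 4 each). D1 against D2 gave p = 0.0286 at each age by a two-sided exact permutation test, the smallest that 4 against 4 can give, and 0.0727 after Benjamini-Hochberg adjustment over 28 exact tests. Old against young gave p = 0.714 in D1 and p = 0.314 in D2 neurons by the same exact test.

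The share of the short Gs alpha transcript in all Gnas isoform TPM was highest in old D1 libraries, though not past the adjusted test. Every old D1 library was above every young D1 and old D2 library. Gnas-206, which lacks the 45-base exon printed above, made up 83.1, 77.3, 70.2 and 100% of Gnas isoform TPM in old D1 libraries, against 29.3, 66.0, 53.5 and 57.7% in young D1 libraries. In old D2 libraries it made up 34.7, 39.5, 57.9 and 59.4%, and in young D2 libraries 43.5, 42.8, 24.6 and 82.7%. The lowest old D1 library was above the highest young D1 and the highest old D2 library, while 1 young D2 library lay within the old D1 range. Models of 730 and 702 bases, Gnas-205 and Gnas-214, also count in these totals. Gnas-205 held 20.3% in young D1 library 1. Gnas-214 held 14.7% in young D1 library 2 and 22.7% in old D1 library 2. Gnas-208 held 19.2% in young D1 library 2 and 22.0% in old D1 library 3. By Gnas-206 over Gnas-208 that young D1 library lay above that old D1 library, so these groups overlapped.

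Gnas-208, with the exon, was at 9.74 ± 11.4% in old D1 and 34.6 ± 13.4% in young D1 libraries, and at 43.5 ± 10.4% in old D2 and 39.1 ± 23.1% in young D2 libraries. In 2 old D1 libraries it was listed at 0. The Gnas-206 share gave p = 0.0286 by the exact permutation test for old against young D1 and for old D1 against old D2 libraries, and 0.0727 adjusted over the 28 tests, so no isoform share passed the adjustment. The GC content of the exon lies in the range where old D1 counts were low, and the part of GC content in this share was not tested. The estimated gene counts of Gnas were not whole numbers in 15 of 16 libraries.

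**Figure D4:**
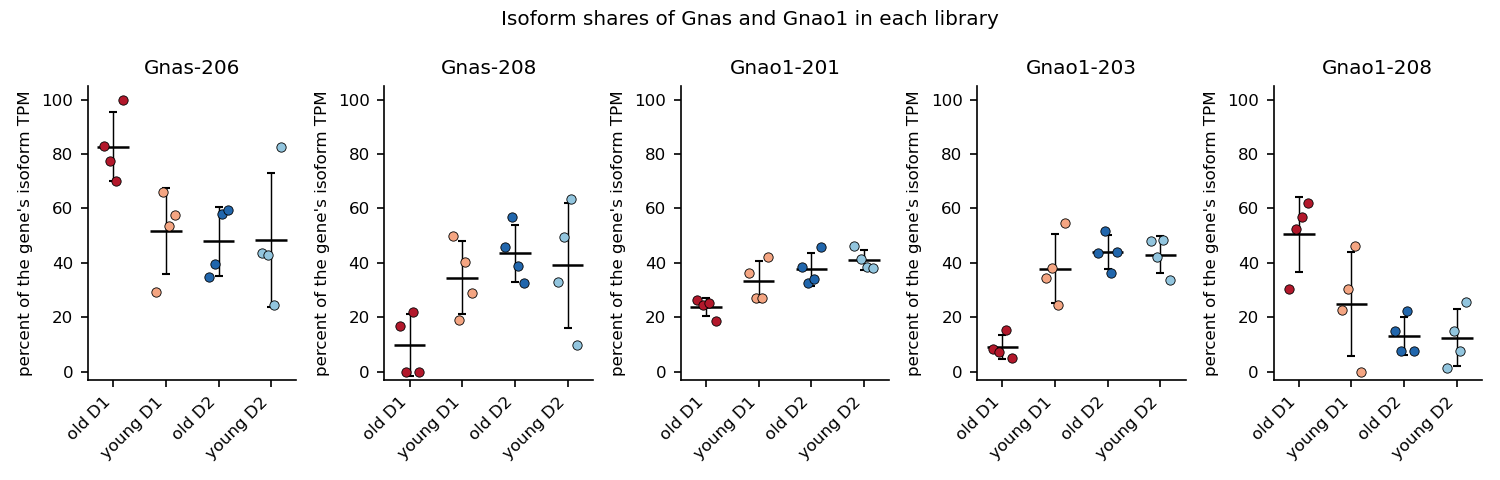
Share of each isoform in the gene's isoform TPM (vertical axes, percent) in every library, by group. Points are libraries, the wide bar is the group mean and the whisker its SD (n = 4). Gnas-206 is at 70.2% or more in old D1 libraries, and Gnao1-203 is at 15.5% or less there and at 24.4% or more in all others.

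The Gnao1 isoform shares of old D1 libraries also stood apart, again not past the adjusted test. Gnao1-201 and Gnao1-203 have the same coding exons and differ in their untranslated 3′ end. Gnao1-203 made up 8.30, 7.29, 15.5 and 4.94% of Gnao1 isoform TPM in old D1 libraries, against 34.4, 38.0, 24.4 and 54.8% in young D1 libraries. It was at 43.9 ± 6.3% in old D2 and 43.1 ± 6.9% in young D2 libraries. All old D1 libraries were below all others, with p = 0.0286 by the exact permutation test against young D1 and against old D2 libraries, and 0.0727 adjusted.

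The partial model Gnao1-208 made up 50.4 ± 13.8% of isoform TPM in old D1 and 24.8 ± 19.2% in young D1 libraries, and 13.1 ± 7.1% in old D2 and 12.4 ± 10.5% in young D2 libraries. Its share of the counts was 8.85% in old D1 and 2.16% in young D1 libraries. Gnao1-210, of 231 bases, made up 15.7 ± 13.5% of isoform TPM in old D1 and 1.99 ± 1.87% in young D1 libraries. By counts Gnao1-210 held 1.28% in old D1 and 0.071% in young D1 libraries. By counts Gnao1-201 held 62.8 ± 6.5% in old D1 and 41.9 ± 4.8% in young D1 libraries, and Gnao1-203 held 26.7 ± 8.1% and 55.4 ± 6.0%. Gnao1-201 thus had a lower share of TPM and a higher share of counts in old than in young D1 libraries, while Gnao1-203 was lower on both scales. The deposited tables hold only 2 Gnal isoforms, and Gnal-202 made up 99.9 to 100% of Gnal TPM on average in every group.

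Beyond the 10 genes, other subunits were grouped in lists of 9 alpha, 4 beta and 10 gamma genes, of which 4, 3 and 7 passed the filter on low counts. The retinal transducin alpha genes Gnat1 and Gnat2, the taste gene Gnat3 and Gna14, Gna15 and Gnb3 were listed at 0 TPM in all 16 libraries. In D1 neurons with age, 1 alpha gene (Gna11) and 2 beta genes (Gnb2 and Gnb5) were called lower and none was called higher, where 10.8% of all tested genes were called. The median log2 fold change was -0.77 over the 4 alpha, -2.01 over the 3 beta and -0.42 over the 7 gamma genes. No gene of the 3 lists was called for D2 age, for the difference of the age changes or for D1 against D2 at 42 days.

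Gnb2, a widely used beta subunit, was at 61.9 ± 25.8 TPM in old D1 and 197 ± 50.5 TPM in young D1 libraries (SD, n = 4 each), with a log2 fold change of -2.01 ± 0.38 and an adjusted p of 0.00248 by edgeR. Gnb5, which pairs with regulators of G protein signalling rather than with usual gamma subunits, was at 7.13 ± 6.55 and 43.9 ± 16.3 TPM in the same groups, a log2 fold change of -2.72 ± 0.57 with an adjusted p of 0.00532. Gna11, a Gq family gene, was at 32.8 ± 21.8 and 79.8 ± 24.5 TPM, with -1.43 ± 0.37 and an adjusted p of 0.0183. With the GC trend removed Gnb2 had -0.76 with an adjusted p of 0.244 and Gna11 had -0.56 with 0.294. Gna11 also lost its call without young D1 library 4 or old D1 library 2, with adjusted p-values of 0.0639 and 0.0519 by edgeR. The adjusted p of Gnb5 was 0.142 in the fit to D1 libraries alone and 0.156 by voom.

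At 2 years the same 3 genes were lower in D1 than in D2 libraries, where Gnb2 averaged 193 TPM, Gnb5 86.4 TPM and Gna11 99.5 TPM. Their log2 fold changes were -1.85 ± 0.38, -3.48 ± 0.59 and -1.52 ± 0.37, with adjusted p-values of 0.00474, 0.00108 and 0.0143 by edgeR. With the GC trend removed Gnb2 had -1.03 with an adjusted p of 0.114 and Gna11 had -0.74 with 0.162. In the fit to the compared groups the adjusted p was 0.0758 for Gnb2 and 0.0940 for Gna11, and by voom it was 0.0966 for Gnb2 and 0.0599 for Gnb5. Gnb4, another beta subunit, was higher in D1 libraries: 59.4, 79.2, 113 and 37.6 TPM in old D1, against 6.64, 22.4, 15.9 and 19.6 TPM in old D2 libraries. Its log2 fold change was 2.5 ± 0.59 with an adjusted p of 0.0121 by edgeR, and it was called under all 23 alternatives. At 42 days Gnb4 was at 41.9 ± 18.7 TPM in D1 and 9.20 ± 6.79 TPM in D2 libraries, with a log2 fold change of 2.04 ± 0.58 and an adjusted p of 0.267.

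Of 11 chaperones and nucleotide exchange modulators of G proteins, 7 were tested and none was called in any of the 5 comparisons. Ric8b, which assists the folding of G alpha olf and Gs alpha, averaged 98.8 ± 58.3 TPM in old D1 and 120 ± 27.9 TPM in young D1 libraries, with a log2 fold change of -0.37 ± 0.29. Adcy5, the main adenylyl cyclase of striatal neurons, averaged 230 ± 25.9 TPM in old D1 and 231 ± 28.7 TPM in young D1 libraries, with a log2 fold change of -0.10 ± 0.18.

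As a description, the tested genes most like Gng7 over the 16 libraries by Pearson's r of log2 CPM were Hs6st1 (0.948), Mafg (0.941), Syndig1l (0.935), Lynx1 (0.933) and Rasd2 (0.928). Those most like Gnal were Ppp2ca (0.938), Map9 (0.887), Ash1l (0.877), Pde7b (0.870) and Gpalpp1 (0.862). These values were taken across all groups, and the part of group differences in them was not tested. The genes like Gng7 hold 54.9 to 59.5% GC and those like Gnal 42.7 to 46.0%.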

How the data were processed

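Ribosome-bound mRNA of 16 striatal libraries was analysed. Per the submitters' processing notes, the tools were STAR 2.5.1b and RSEM 1.2.20 and the build was mm10. Which annotation and strand setting were used is not given in the sources here. The deposited tables hold RSEM expected counts and TPM for each gene and each isoform, and the percent of a gene held by each isoform, per the file headers. The deposited FPKM values, from the same RSEM run per the file headers, were not used. The 3 NIH-3T3 samples are not analysed here.

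Expected counts were rounded (20.0% of nonzero values were not whole), filtered with filterByExpr, scaled by TMM and tested with edgeR 4.0.16 (robust quasi-likelihood, 1 mean per group, all 16 libraries; R 4.3.3), with Benjamini-Hochberg adjustment over 13926 genes. Isoform shares are percent of isoform TPM; shares and ratios were compared by exact permutation tests. DESeq2 1.42.0, limma 3.58.1 (log2 of TPM plus a pseudocount of 1, and voom with library weights), other filters and scalings, a GC and length trend (5-df splines) and leaving out each library were the alternatives. The trend was fitted robustly to genes above the median abundance, a form chosen after seeing that a fit to all tested genes moved the median of all genes. The tests were tested on simulated data.

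Members and lists were chosen with earlier results of these data known. Genes of the other subunit lists were named where called. Called genes of the marker lists and of the list of receptors and cyclase were not all named. Ric8b, Adcy5 and the genes at 0 were added after their values were seen. Libraries of a group are biological replicates per the series' design; they were numbered in record order. Positions, isoform names and the GC content and length used for the trend came from GENCODE M21 (GRCm38). The printed Gnas exon came from the GRCm38.p6 genome. The deposited main isoform lengths of Gnal, Gnai1, Gnai2 and Gng3 differed from those in GENCODE M21. No molecular identifiers were used, so precision reflects library spread and not counted molecules.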

Additional observations from a re-analysis of the deposited data

Results flagged for a closer look

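In 3 of 64 sets of 4 libraries tested, counting gene levels, isoform shares and the Gnal to Gnas ratio, 1 library lay far from the other 3; chance flags about 1 in 20 such groups. Gnas had 37.29 TPM in 1 old D1 library, against 89.6, 90.0 and 90.8 TPM in the other old D1 libraries. Gnaq had 57.79 TPM in 1 young D1 library, against 86.1, 87.0 and 87.7 TPM in the other young D1 libraries. Gnao1 had 1597 TPM in 1 young D2 library, against 1039, 1096 and 1102 TPM in the other young D2 libraries.

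The age change differed between D1 and D2 neurons for 2 genes by edgeR's test of the difference itself. For Gnal the change in D1 minus that in D2 was 1.0 on the log2 scale, and for Gng3 it was -1.85. Only 9 of 22 alternatives called Gnal and 10 of 22 called Gng3.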

How the results depend on the processing

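The calls of Gnai1 at both ages, Gnas at 42 days, Gng3 and Gng7 in D1 age, and Gng3 and Gnb4 at 2 years held in all 23 alternatives. The number of the 10 genes called changed from 5 for D1 age in the fit to the compared groups (2), by voom (3), with no count filter (4), by limma on log2(TPM + 1) (6) and with the GC trend removed (6), for the difference of age changes with DESeq2 (4), voom (1) and the GC trend removed (1), for D1 against D2 at 2 years by limma (7), DESeq2 (6), voom (3) and the fit to the compared groups (3), and at 42 days by voom (4). Over all tested genes, DESeq2 called 2600 for D1 age, 102 for D2 age, 1019 for the difference, 2402 at 2 years and 189 at 42 days. Voom called 547 for D1 age, 167 for D2 age, 655 at 2 years and 203 at 42 days; the fit to the compared groups called 288, 330 and 97 for D1 age, 2 years and 42 days; removing the GC trend left 922 for D1 age and 129 for the difference. Without 1 library each, the counts ran from 909 (without young D1 library 4) to 2055 (without old D1 library 3) for D1 age, 5 to 18 for D2 age, 66 to 656 for the difference, 692 (without old D2 library 2) to 1873 (without old D1 library 3) at 2 years and 40 to 90 at 42 days, and from 0 to 5 of the 10 genes for the difference. The causes were not tested.

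Small changes that were never called turned sign: Gnai2 in D2 age by limma (0.16), Gnai1 in the difference without the GC trend (-0.10), and at 42 days Gng3 by limma (-0.13), voom (-0.084) and without the GC trend (-0.074), and Gng7 by limma (0.21). By expected counts the Gnao1-201 share was higher by 20.9 points in D1 age and 21.4 points at 2 years, and the Gnao1-203 share by 0.75 points at 42 days. Without 1 library each, log2 changes ran from -0.36 to 0.34 (Gnai2), -0.068 to 0.21 (Gnai3) and -0.31 to 0.023 (Gng3) in D2 age, from -0.17 to 0.011 (Gnai3), -0.12 to 0.14 (Gng3) and -0.28 to 0.052 (Gng7) at 42 days, and from -0.31 to 0.011 for Gnb1 in the difference. The log2 ratio of Gnal to Gnas in D1 age ran from -0.13 to 0.45. Shares in D2 age ran from -0.020 to 0.070 (Gnal-202), -2.25 to 3.42 (Gnao1-203), -2.99 to 5.17 (Gnao1-208), -8.49 to 10.9 (Gnas-206) and -5.23 to 12.7 points (Gnas-208), and at 42 days from -4.73 to 14.6 (Gnas-206) and -14.2 to 3.74 points (Gnas-208).

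Voom moved the median change of all genes by -0.32 in D1 age and at 2 years, and limma on log2(TPM + 1) by -0.23 at 2 years. Leaving out a library brings 4 against 4 to 3 against 4, where an exact test cannot go below p = 0.0571. Without Gm42418, 13 of the 40 group means of TPM moved by more than their SD, all upward. No paired analysis was possible because the groups were mice of different lines or ages and the labels give no pairing between them. Isoform shares rest on RSEM's division of fragments, and Gnai2 had as few as 167 estimated fragments in a library.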
